A study of Homo sapiens with 33 samples.

Results

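The WRAP53 tiles are 28 short RNAs, named WRAP53_1 to WRAP53_28, among the 985 oligonucleotide tiles of a pool that was transfected into HEK293T, a line of human embryonic kidney cells, together with FLAG-GFP-CTCF. They were taken by name, with earlier results of these data known. Each tile was represented by 24 barcodes, so the WRAP53 tiles account for 672 of the 23640 counted oligonucleotides. All 28 passed the filter on low counts, as did 977 tiles of the whole pool. Cells were harvested 48 hours after transfection and fixed with 0.1% formaldehyde for 10 minutes. A FLAG immunoprecipitate and an Input were then read by amplicon sequencing of cDNA, with 3 libraries of each. All 6 libraries came from cells that carried the tagged CTCF, and no precipitation without it, with GFP alone or with another antibody was among them. Recovery with CTCF and recovery with the beads, the antibody or the GFP tag therefore cannot be told apart.

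CTCF is a zinc-finger protein that binds DNA, sets chromatin loops and insulates neighbouring genes, and it also binds RNA. The WRAP53 locus makes an mRNA for a WD40-repeat protein of Cajal bodies that guides small Cajal body RNAs and telomerase RNA, and it also makes an antisense transcript that has been reported to bind CTCF. Tiling such an RNA into short barcoded pieces asks which stretches are recovered with the protein when each is taken out of its long transcript. A barcode is a short tag that marks copies of the same tile, so the 24 barcodes are repeat measurements of 1 sequence and not independent samples. The names number the tiles from 1 to 28. Their sequences and positions in the transcript were not used here, so tiles are ordered by number only.

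The WRAP53 tiles as a group stood above Input. They held 4.39%, 3.32% and 3.36% of all reads in Input replicates 1, 2 and 3, and 6.05%, 4.68% and 4.65% in the immunoprecipitates of the same numbers. Wilson 95% intervals reached at most 0.00677 percentage points to either side of these shares. The immunoprecipitate share was 1.38, 1.41 and 1.38 times the Input share within the pairs of equal number, and every immunoprecipitate share was above every Input share. Replicate 1 held a larger share than replicates 2 and 3 in both fractions. The libraries held between 35234255 and 58020403 reads, and because reads carry no stated molecular identifiers these intervals cover counting error only.

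Counts were summed over the barcodes of a tile and scaled to library size times a TMM factor, which sets the bulk of tiles equal between libraries; the result is a count per 1000000 reads, called CPM below. The median log2 fold change of the 28 WRAP53 tiles, immunoprecipitate over Input, was 0.53, against 0.00 over all 977 tiles tested. The WRAP53 median within pairs 1, 2 and 3 was 0.50, 0.55 and 0.47. The pooled median was 0.72 without Input replicate 1 and 0.27 without immunoprecipitate replicate 1, both of which held a larger WRAP53 share than the other libraries of their fraction, and 0.53 without both. In 25 of the 28 tiles the fold change was above 0, or 89.3%, against 50.2% of all tiles. In 22 tiles the immunoprecipitate was above Input in all 3 pairs (78.6%, against 30.9% of all tiles), and in 0 tiles was it below in all 3 (31.1% of all tiles). In 9 tiles every immunoprecipitate library was above every Input library (32.1%, against 18.1% of all tiles), and in 0 tiles every one was below (15.7%). Of the 977 tiles tested, 471 were TSIX tiles, of which 17.2% were above Input in all 3 pairs. The same shares in source RNAs with a like number of tiles are given further below. These counts describe the list and were not tested as a set.

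How many single tiles passed a test depended on whether libraries of equal number were treated as pairs. In the fit without pairing, edgeR called 2 of the 28 tiles higher and 0 lower at an adjusted p under 0.05, where 2.87% of all tiles were called higher and 1.94% lower. A further 7 WRAP53 tiles had an unadjusted p under 0.05, which makes 9 with the called tiles, all with a fold change above 0. That is 32.1% of the 28, against 15.4% of all tiles with such a p and a fold change above 0. In either direction it was 28.2% of all tiles (276 of 977). With the replicate number as a block, 17 WRAP53 tiles were called higher and 0 lower, where 15.5% of all tiles were called higher and 12.2% lower. Each of the 17 was higher in all 3 pairs, but in 8 of them the fractions overlapped, with Input replicate 1 above an immunoprecipitate of replicate 2 or 3. Without both fractions of replicate 1 the blocked fit called 17 WRAP53 tiles higher and 3 lower, where 24.9% of all tiles were called higher and 23.6% lower. Without replicate 2 it called 7 higher and 0 lower, where 6.25% of all tiles were called higher and 4.41% lower. Without replicate 3 edgeR with the block called 0 tiles of either kind among the 28 and 0 in the whole pool. In that fit 16 WRAP53 tiles, all with a fold change above 0, had an unadjusted p under 0.05 (57.1%). Over the 976 tiles tested it was 14.5% with a fold change above 0, and 27.4% (267) in either direction. DESeq2, without the block, called WRAP53_1, WRAP53_11, WRAP53_17, WRAP53_19, WRAP53_25 and WRAP53_27 higher, 6 of the 28, and 0 lower, where 10.4% of all tiles were called higher and 7.88% lower. Across the pool, deviations of Input and immunoprecipitate from their group means correlated at 0.700, 0.683 and 0.293 for replicates 1, 2 and 3. Immunoprecipitate 3 correlated more with Input 2 (0.565) than with Input 3. Over the 28 WRAP53 tiles alone the equal-number values were -0.110, 0.008 and -0.096. A shift common to all 28 tiles of a library does not enter such a correlation, so these values cannot show whether replicates were paired. Pairing is stated by no label, and so both fits are used below.

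WRAP53_1, the tile with the lowest number, had the highest fold change of the 28 in the fit without the block. It lay at 4672, 2675 and 2862 CPM in Input replicates 1, 2 and 3 and at 6409.9, 8766 and 8389 CPM in the immunoprecipitates. The fractions did not overlap, and the Input of replicate 1 was the highest of the Input libraries. The tile was 2.31-fold higher (log2 fold change 1.21 ± 0.26, SE, n = 3 against 3; adjusted p = 0.0464 in edgeR), and with the block 2.37-fold higher (adjusted p = 0.0168), level with WRAP53_11. The rise was uneven: 1.37-fold in pair 1, 3.28-fold in pair 2 and 2.93-fold in pair 3. In pairs 2 and 3 it ranked first of the 28 tiles, 1.17 and 1.08 log2 units above the WRAP53 median of the pair, whereas in pair 1 it ranked 19th and was 0.05 below that median (-0.05). As a share of all WRAP53 reads, WRAP53_1 moved from 10.5% to 9.79% in pair 1, from 8.21% to 19.3% in pair 2 and from 8.52% to 18.7% in pair 3.

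WRAP53_27 was the other tile called in both fits. Its Input lay at 985, 666 and 811 CPM and its immunoprecipitate at 1526, 1834 and 1677 CPM. The fractions were separated by a wide gap and the immunoprecipitate libraries were close together. The tile was 2.05-fold higher (log2 fold change 1.03 ± 0.18, SE; adjusted p = 0.0362 in edgeR), and 2.07-fold higher with the block (adjusted p = 0.0109). The calls of WRAP53_1 and WRAP53_27 without the block were lost when any single library of replicate 2 or 3 was left out, with adjusted p of 0.124 to 0.243 for WRAP53_1 and 0.104 to 0.204 for WRAP53_27 in edgeR. The whole pool had 0 calls in these fits, and the log2 fold changes stayed at 1.06 to 1.16 for WRAP53_1 and 0.90 to 1.04 for WRAP53_27. Both calls held without either library of replicate 1. With the block, the call of WRAP53_1 was lost without replicate 2 or replicate 3 (adjusted p = 0.0736 and 0.0987 in edgeR) and that of WRAP53_27 without replicate 3 (adjusted p = 0.0583).

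WRAP53_28, the tile with the highest number, followed the same uneven course as WRAP53_1. It lay at 1095, 449 and 499 CPM in Input and at 1188, 1212 and 1138 CPM in the immunoprecipitate. The immunoprecipitate libraries were nearly level, while the Input of replicate 1 was well above that of replicates 2 and 3. The fold was 1.08 in pair 1, 2.70 in pair 2 and 2.28 in pair 3. With all libraries the tile was called with the block (log2 fold change 0.92 ± 0.25, SE; adjusted p = 0.0387 in edgeR) and not without it (adjusted p = 0.176). Without the block it was called when Input replicate 1 was left out (adjusted p = 0.0257 in edgeR) and when both fractions of replicate 1 were.

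WRAP53_11 and WRAP53_19 rose by about as much as WRAP53_1 and more evenly over the pairs. WRAP53_11 lay at 518, 227 and 292 CPM in Input and at 975, 699 and 673 CPM in the immunoprecipitate. WRAP53_19 lay at 697, 426 and 500.0 CPM in Input and at 1342, 1044 and 944 CPM in the immunoprecipitate. In neither tile did the fractions overlap, and replicate 1 was the highest library of each fraction. With the block, the log2 fold change was 1.24 ± 0.20 for WRAP53_11 (SE; adjusted p = 0.0109 in edgeR) and 1.05 ± 0.15 for WRAP53_19 (adjusted p = 0.00912). Without it both missed the threshold in edgeR, at adjusted p = 0.0774 and 0.0553, and both were called by DESeq2, at adjusted p = 0.0102 and 0.00214. The rise of WRAP53_11 was 1.88-fold, 3.07-fold and 2.30-fold in pairs 1, 2 and 3, and that of WRAP53_19 was 1.93-fold, 2.45-fold and 1.89-fold.

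WRAP53_17 showed the most even rise of the 28 tiles. Input lay at 883, 654 and 671 CPM and the immunoprecipitate at 1448, 1111 and 1195 CPM. The fold was 1.64, 1.70 and 1.78 in pairs 1, 2 and 3, and the SD of the log2 ratio over the pairs was 0.06, the smallest among the 28. With the block it was called (log2 fold change 0.77 ± 0.12, SE; adjusted p = 0.00912 in edgeR), and without it the adjusted p was 0.0608. Without the block it was called by DESeq2 (adjusted p = 0.00600) and by edgeR scaled to library size only (adjusted p = 0.0443).

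WRAP53_20 and WRAP53_21 were more abundant and rose by like amounts, with replicate 1 standing apart in level. WRAP53_20 lay at 2338, 1316 and 1327 CPM in Input and at 4217, 2029 and 2312 CPM in the immunoprecipitate. WRAP53_21 lay at 2292, 1144 and 1119 CPM in Input and at 4424, 1668 and 1939.8 CPM in the immunoprecipitate. The Input of replicate 1 was above the immunoprecipitates of replicates 2 and 3 in WRAP53_20 and in WRAP53_21 alike, so the fractions overlapped although each pair rose. With the block the log2 fold changes were 0.76 ± 0.11 (SE; adjusted p = 0.00912 in edgeR) and 0.76 ± 0.13 (adjusted p = 0.0109), and without it the adjusted p values were 0.184 and 0.260.

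The other 9 tiles called with the block rose less. WRAP53_18, WRAP53_22, WRAP53_13, WRAP53_24 and WRAP53_15 had blocked log2 fold changes of 0.72, 0.69, 0.62, 0.61 and 0.60. WRAP53_25, WRAP53_8, WRAP53_5 and WRAP53_12 had blocked log2 fold changes of 0.51, 0.49, 0.47 and 0.42. WRAP53_25 lay at 2325, 2089 and 2131 CPM in Input and at 3751, 2992 and 2679.8 CPM in the immunoprecipitate, so its fractions did not overlap. The weakest call was that of WRAP53_15 (adjusted p = 0.0463 in edgeR with the block), at 602, 542 and 489 CPM in Input and 1056, 635 and 824 CPM in the immunoprecipitate.

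The 5 lowest fold changes without the block belonged to WRAP53_6, WRAP53_3, WRAP53_9, WRAP53_2 and WRAP53_14, none of which passed in either fit. WRAP53_3, the most abundant of the 28 in Input, lay at 5203, 5610.5 and 5405 CPM there and at 7007, 3839 and 3715 CPM in the immunoprecipitate. Input was steady, and the immunoprecipitate was above it in pair 1 and below it in pairs 2 and 3. Its log2 fold change was -0.16 ± 0.26 (SE; adjusted p = 0.736 in edgeR), and -0.22 ± 0.21 with the block (adjusted p = 0.472).

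WRAP53_9 and WRAP53_14 showed the same split between pair 1 and the others. WRAP53_9 lay at 4187, 3352 and 2979 CPM in Input and at 5209, 2602 and 2376 CPM in the immunoprecipitate. WRAP53_14 lay at 2053, 1859.7 and 1757 CPM in Input and at 3333, 1554 and 1542 CPM in the immunoprecipitate. Both were above Input in pair 1 and below it in pairs 2 and 3, by log2 ratios of 0.32, -0.37 and -0.33 for WRAP53_9 and 0.70, -0.26 and -0.19 for WRAP53_14. Without both fractions of replicate 1, edgeR without the block called 17 WRAP53 tiles higher and 3 lower, where 24.4% of all tiles were called higher and 21.9% lower. The 3 were WRAP53_3 (log2 fold change -0.54), WRAP53_6 (-0.37) and WRAP53_9 (-0.35).

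WRAP53_6 lay at 1698, 1415 and 1704 CPM in Input and at 1846, 1217 and 1193 CPM in the immunoprecipitate, and its log2 fold change was -0.18 ± 0.20 (SE; adjusted p = 0.601 in edgeR). WRAP53_2 was at 0.17 ± 0.18 (adjusted p = 0.556), with log2 ratios of 0.48, 0.11 and -0.13 in pairs 1, 2 and 3. The tiles not called in either fit also include WRAP53_4, WRAP53_7, WRAP53_10, WRAP53_16, WRAP53_23 and WRAP53_26, whose log2 fold changes without the block were 0.45, 0.28, 0.38, 0.51, 0.44 and 0.49. WRAP53_26 had the largest pair 1 ratio of all 28 (1.12) but ratios of 0.15 and -0.20 in pairs 2 and 3.

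Pair 1 therefore ordered the tiles differently from pairs 2 and 3. Its log2 ratios ran from 0.09 (WRAP53_7) to 1.12 (WRAP53_26), with all 28 above 0 and an SD over tiles of 0.28. In pair 2 they ran from -0.55 (WRAP53_3) to 1.71 (WRAP53_1), with 24 above 0 and an SD of 0.58. In pair 3 they ran from -0.54 to 1.55, between the same tiles as in pair 2. There 22 were above 0 and the SD was 0.53. Over all tiles tested in the pool the order was the other way, with SDs of 1.08, 0.73 and 0.72 in pairs 1, 2 and 3. Over the 28 tiles the Pearson correlation of the log2 ratios was 0.871 between pairs 2 and 3 (Spearman 0.794). Between pair 1 and pairs 2 and 3 it was 0.148 and 0.121 (Spearman 0.183 and 0.097). Over all 977 tiles it was 0.597 between pairs 2 and 3 (Spearman 0.752). Between pair 1 and pairs 2 and 3 it was there 0.281 and 0.068 (Spearman 0.536 and 0.446). Tiles share their libraries, so these are descriptions. The median of the tiles was thus close to level over the pairs while the order of single tiles was shared by 2 of the 3.

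Along the tile numbers, means over neighbouring tiles were lowest just after WRAP53_1 and highest in the later part. The highest mean log2 ratio over 5 consecutive tiles was that of WRAP53_17 to WRAP53_21, at 0.87, 0.77 and 0.80 in pairs 1, 2 and 3 (mean 0.81, SD 0.05). All 5 of its tiles were called with the block, as were 17 of the 28. The window was picked by the same ratios that the blocked fit tests, so these calls add no support. Tiles 18 to 22 followed with a mean of 0.80, at 0.81, 0.76 and 0.82 in pairs 1, 2 and 3. By single pairs, tiles 17 to 21 were the highest window in pair 1 only. The highest window was tiles 24 to 28 in pair 2 (0.90) and tiles 19 to 23 in pair 3 (0.86). The place of the highest window thus differed between the pairs. The lowest window was that of WRAP53_2 to WRAP53_6, at 0.46, 0.055 and -0.14 (mean 0.12, SD 0.31), in which WRAP53_5 alone was called with the block and all libraries. That low window lies directly beside WRAP53_1, and without the block WRAP53_2 was at 1.13-fold of Input, against 2.31-fold for WRAP53_1. Whether neighbouring numbers overlap in sequence is not given in the sources used here. Over the 27 pairs of neighbours the Pearson correlation of the log2 fold changes was 0.195, as a description.

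Single barcodes showed how broadly each tile's value was carried. Of the 672 WRAP53 barcodes, 669 had at least 30 reads over the 6 libraries. Of these, 75.0%, 65.5% and 63.4% were higher in the immunoprecipitate in pairs 1, 2 and 3, and 240 were higher in all 3 pairs. That is 35.9%, against 13.6% of the 22949 barcodes of the pool that were counted the same way, while 33 were lower in all 3 pairs (4.93%, against 20.4%). In WRAP53_1, 23 of 24 barcodes were higher in all 3 pairs, the largest number of any WRAP53 tile. In WRAP53_13 and WRAP53_27 it was 17 of 23 and 17 of 24, in WRAP53_20 16 and in WRAP53_21 15 of 24.

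In the low tiles the direction of the barcodes changed with the pair. In WRAP53_3, 17 of 24 barcodes were higher in pair 1, 1 in pair 2 and 0 in pair 3, so the split between pairs ran through nearly all of its barcodes. In WRAP53_9 the numbers were 17, 5 and 7, and in WRAP53_14 they were 21, 8 and 11. Other tiles called with the block had fewer barcodes higher in all 3 pairs, down to 7 of 24 in WRAP53_12. It was 8 of 24 in WRAP53_18 and 9 of 23 in WRAP53_17. WRAP53_11, one of the less abundant tiles, was less even over its barcodes than WRAP53_1. In it, 11 of 24 barcodes were higher in all 3 pairs although the summed tile rose 2.37-fold with the block. The mean log2 ratios of its barcodes ran from -1.11 to 2.83. Its mean Input was 346 CPM, against 3403 CPM for WRAP53_1. The part of read depth in these barcode counts was not tested. No barcode held more than 12.8% of the reads of its tile, the largest share being in WRAP53_18, and without the barcode with most reads of each tile WRAP53_1 and WRAP53_27 were still the tiles called.

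The WRAP53 tiles were set beside the source RNAs of the pool with a like number of tiles. These were PPIA, a cyclophilin mRNA with 30 tiles of which 29 were tested, and SRA1, the steroid receptor RNA activator transcript, with 26. The others were JPX, a noncoding RNA of the X-inactivation centre with 21, and GAPDH, a glycolytic enzyme mRNA with 20. PPIA was added after the values were seen. The median log2 fold change was 0.53 for WRAP53, 0.53 for GAPDH, 0.40 for SRA1, 0.26 for PPIA and 0.22 for JPX. With the block, 17 of 28 WRAP53 tiles were called higher (60.7%), 12 of 20 GAPDH tiles (60.0%), 9 of 26 SRA1 tiles, 10 of 29 PPIA tiles and 8 of 21 JPX tiles. Without the block, PPIA (3 of 29 tiles, 10.3%) and JPX (2 of 21, 9.52%) had larger shares called higher than WRAP53 (2 of 28, 7.14%). GAPDH and SRA1 had 1 tile each (5.00% and 3.85%). Over all tiles the shares were 15.5% with the block and 2.87% without it. GAPDH within pairs had medians of 0.48, 0.59 and 0.57 beside 0.50, 0.55 and 0.47 for WRAP53. Tiles above Input in all 3 pairs made up 78.6% of WRAP53, 75.0% of GAPDH, 69.2% of SRA1, 61.9% of JPX and 58.6% of PPIA. Tiles without overlap of the fractions, higher, made up 32.1%, 45.0%, 30.8%, 33.3% and 31.0% in the same order. Barcodes higher in all 3 pairs made up 35.9% in WRAP53, 32.7% in GAPDH, 29.7% in SRA1 and 22.9% in JPX, against 13.6% in the pool. This share was not computed for PPIA. The WRAP53 fold changes covered the narrowest range of values among the 5, from -0.18 to 1.21, with an interquartile range of 0.37 against 0.51 to 0.56 in the others and 0.75 in all tiles. No test between the lists was made, and GAPDH was close to WRAP53 by its median and its share of calls with the block.

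The level of a tile in Input moved weakly with its fold change. Mean Input levels of the 28 tiles ran from 206 to 5406 CPM, with a median of 833 against 791 CPM over all tiles tested. The Spearman correlation of the Input level with the log2 fold change was -0.245 over the 28 tiles and -0.230 over all 977, as descriptions of tiles that share libraries. The part of abundance in the fold changes was not tested. WRAP53_3, WRAP53_9 and WRAP53_1 were the 3 most abundant of the 28, and the first 2 had fold changes near 0 while the third had the highest without the block.

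A separate pool, named for WRAP53 in the labels and also combined with FLAG-GFP-CTCF, holds a tile called wt_1. It lay at 18016, 17939 and 17778 CPM in Input and at 18052, 17977 and 18724 CPM in the immunoprecipitate, with log2 ratios of 0.0029, 0.0030 and 0.075 in its pairs 1, 2 and 3. Each value was scaled within its own pool of 55 tiles, and which of the 28 tiles wt_1 corresponds to is not given in the sources used here, so the 2 pools were not compared.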

How the data were processed

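Counts deposited by the authors were used as they stand, a line for each barcode of a tile and a column for each library. Per the file headers and the whole-number values these are raw read counts. The program that assigned reads to tiles is not given in the sources used here. Of the columns of per-sample values, 0 were unmatched. Tiles were summed over barcodes, and the whole CTCF pool was fitted in R 4.3.3 with edgeR 4.0.16 (filterByExpr, TMM, robust quasi-likelihood F test, Benjamini-Hochberg over 977 tiles). The alternative test was that of DESeq2 1.42.0. The SE of a log2 fold change is its size over the root of its F statistic. Log2 ratios within a pair used log2 CPM with a prior count of 2. The edgeR fits without and with the block and the DESeq2 fit were run on simulated counts. The simulation held no replicate effect, so it cannot show how these fits behave where replicates differ as they do here.

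Named tiles were those called in either fit, the 5 highest and the 5 lowest. The members and these rules were chosen with earlier results of these data known. Nothing in the labels states that replicates were separate cultures; the p-values then reflect only the spread of these libraries, possibly technical. Chi-square statistics per degree of freedom between libraries of a group ran from 258 to 4616 over tiles, so none was a second copy of another. Deviations from the group means correlated at 0.700, 0.683 and 0.293 between Input and immunoprecipitate of equal number over 977 tiles, which was read as pairing from the data, since no label states it; immunoprecipitate 3 correlated at 0.565 with Input 2. Over the 28 WRAP53 tiles alone, the same correlations were -0.110, 0.008 and -0.096, and they leave out any shift common to these tiles. The alternatives were other scalings, filters and prior counts, the block, and libraries left out.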

Additional observations from a re-analysis of the deposited data

How the results depend on the processing

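The direction of the WRAP53 median held in every fit run, and the count of called tiles did not. Without pairing, 2 WRAP53 tiles were called (28 higher and 19 lower in the whole pool), against 4 with library size only (pool 40 and 26), 6 by DESeq2 (pool 102 and 77) and 17 with the replicate block (pool 151 and 119). DESeq2 gave an adjusted p for 27 of the 28 tiles. RLE size factors, a minimum mean count of 50, no filter and leaving out each tile's barcode with most reads called the same 2 tiles. Leaving out 1 library, or both fractions of 1 replicate, gave 0 to 20 calls: 7 without Input replicate 1 (pool 83 higher and 52 lower), 4 without immunoprecipitate replicate 1 (3 higher, 1 lower; pool 57 and 54), 20 without both (17 higher, 3 lower; pool 238 and 214), and 0 without any library of replicate 2 or 3. The whole pool likewise had 0 calls in those last fits, in which 5 to 14 of the 28 WRAP53 tiles had an unadjusted p under 0.05, against 8.50% to 25.6% of all tiles. The median log2 fold change ran from 0.27 without immunoprecipitate replicate 1 to 0.72 without Input replicate 1, and was 0.60 without both fractions of replicate 3. With the replicate block, the 17 calls became 20 without replicate 1 (the same 17 higher, 3 lower; pool 243 and 231), 7 without replicate 2 (pool 61 and 43), 0 without replicate 3 (pool 0 and 0) and 13 with library size only (pool 129 and 118), and the median without replicate 3 was 0.60. The fits with the block and a further change, and those without replicate 2 or 3 in both fractions, were chosen after seeing the data. The highest window of 7 tiles, 16 to 22, had a mean of 0.76. Of the named tiles that passed in neither fit, WRAP53_2, WRAP53_3, WRAP53_9 and WRAP53_14 changed sign when libraries were left out, and WRAP53_6 stayed below 0 (-0.43 to -0.019). WRAP53_3 (-0.53 without immunoprecipitate replicate 1, adjusted p = 0.028 in edgeR) was at 0.010 without immunoprecipitate replicate 3, and at 0.016 and 0.0075 without replicates 2 and 3 in both fractions. WRAP53_9 was at 0.082 and 0.058 in the last 2 of these fits, and ran from -0.51 to 0.16 over all. WRAP53_14 was at -0.22 without replicate 1 in both fractions, also with the block (-0.22), and ran from -0.30 to 0.38 over fits without 1 library. WRAP53_2 was at -0.0088 with the block and without replicate 1. The mean of the highest window of 5 tiles moved by less than its SD over the pairs under the other alternatives run. The WRAP53 median minus that of JPX, SRA1 and GAPDH together (0.11) also moved by less than its SD over the pairs. The count of barcodes higher in all 3 pairs stayed within a fixed factor of its main value. That count and that difference were not rerun with a library left out. The cause of the changes between fits was not tested.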
